A study of Homo sapiens with 14 samples.

Results

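dTAG47 was compared with its vehicle in parental CHP-134 cells, which carry no tagged protein for this compound to degrade. These cells are a long-established line from a human neuroblastoma with amplified MYCN. The comparison used 8 of the 14 libraries of the series, chosen by their labels: 4 biological replicates given 500 nM dTAG47 (dTAG47 1 to 4) and 4 given matched dimethyl sulfoxide (DMSO 1 to 4), all harvested after 18 h. The cells of both groups were unmodified, with no tagged PDPK1 and no inducible transgene, and total RNA was sequenced after removal of ribosomal RNA. The comparison asks which transcripts the chemical alone moves, since the same compound serves elsewhere in the study to degrade a tagged PDPK1. It concerns 1 cell line, 1 dose and 1 time. The remaining 6 libraries come from cells that express EGFP or OmoMYC and were not used.

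dTAG47 is a bifunctional degrader. One end binds a mutant form of FKBP12 that is fused to a protein of interest, and the other end binds cereblon, the substrate receptor of a CUL4 ubiquitin ligase, so that the fused protein is ubiquitinated and sent to the proteasome. Ligands of cereblon can also bring natural zinc finger proteins, called neosubstrates, to the ligase. As background to the gene groups described here, cholesterol synthesis is under the control of SREBP2, a membrane-bound transcription factor that is released when sterols in the endoplasmic reticulum are low, whereas LXR receptors sense oxysterols and induce ABCA1, the exporter of cholesterol. Glycolytic genes are shared targets of MYC proteins and of HIF1, the factor that accumulates in hypoxia.

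Each library held 40861430 to 53451641 counts on 19143 genes. Levels are given as CPM, the count of a gene scaled to the size of its library after TMM adjustment, which is not corrected for gene length. Of these genes, 14470 passed edgeR's filter on low counts and entered its quasi-likelihood test, which had a term that separates replicates 1 and 2 from replicates 3 and 4. The labels name no batch, and this term only follows how the libraries differed: the chi-square per degree of freedom between libraries of 1 treatment was 2.68 to 8.48 within a pair of replicate numbers and 5.87 to 23.3 across pairs. A gene is called when its Benjamini-Hochberg adjusted p over all tested genes is under 0.05. The neuroblastoma identity of the cells was present in all 8 libraries, with HAND2 at 349 to 380 CPM, GATA3 at 236 to 257 and CHGA at 279 to 327. The catecholamine enzymes TH and DBH, which also served as markers of this identity, were near the lower end of the range (0.179 to 0.39 and 0.329 to 0.737 CPM).

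One library stood apart. In dTAG47 replicate 2, 13 genes were over 3 times the highest of the other 7 libraries, against 1 gene in DMSO replicate 1 and none in the others. The keratin KRT8 had 202 counts in that library (3.75 CPM) and at most 4 in any other, and KRT19, DSP, KRT18 and MSN followed the same pattern at 0.724 to 1.11 CPM. None of the 13 genes was tested or called. The summed level of the 4 epithelial markers was 0.707 to 0.864 CPM under DMSO and 0.717 to 6.29 CPM under dTAG47. The sum of 4 Schwann cell markers was 7.46 to 8.17 CPM under DMSO and 9.56 to 12.1 CPM under dTAG47. Of these markers, SOX10 was at 1.04 to 1.64 CPM over the 8 libraries and S100B at 0 to 0.0488 CPM. The sums for fibroblast, mesenchymal, immune, endothelial and liver markers overlapped between the treatments. Whether any of these signals had a part in the results was not tested.

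dTAG47 moved many transcripts by small amounts. In all, 374 genes rose (2.58% of those tested) and 420 fell (2.9%). The 794 called genes had a median absolute log2 fold change of 0.14, and 742 of them (93.5%) lay within 1.2-fold. Past 1.5-fold, 6 genes rose and 3 fell. Of the called genes, 166 had treatments whose ranges over all 8 libraries were separate, and 718 had separate ranges within each pair of replicates. All 4 dTAG47 libraries were above all 4 DMSO libraries for 1.87% of tested genes and below them for 1.47%. Within each pair, both dTAG47 libraries were above both DMSO libraries for 7.82% of tested genes and below them for 9.81%. Without the term for the pairs of replicates, 17 genes rose (0.117%) and 6 fell (0.0415%). DESeq2 without the term called 44 of 11999 genes higher and 15 lower. The study called genes with DESeq2 and describes no such term. It reported far fewer changed genes in these cells than the 794 called here, all with small fold changes. Without dTAG47 replicate 2, 1389 rose (9.57%) and 1336 fell (9.21%), and 783 of the 794 genes were called again. Leaving out DMSO replicates 1 to 4 in turn gave 88, 154, 197 and 84 rises and 62, 150, 91 and 85 falls. Without dTAG47 replicates 1, 3 or 4 there were 252, 176 and 74 rises and 265, 198 and 36 falls.

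The direction of change followed the base composition of the transcripts. The genes that rose had a median GC content of 56.8% and a median transcript length of 2935 bases, those that fell 38% and 6418.5 bases, and all tested genes 48.3% and 3853 bases. Tested genes were divided into 10 equal bins by GC content. In the bin with the lowest GC content the median log2 fold change was -0.08, with 221 of 1421 genes called lower and 1 called higher. In the bin with the highest GC content the median was 0.06, with 82 called higher and 0 lower. Against the DMSO libraries of its own pair, the median of the lowest bin was -0.13, -0.03, -0.06 and -0.12 (log2) in dTAG47 replicates 1 to 4. All 4 values were negative, and replicate 2 had the smallest shift. Against the mean of the 8 libraries, this bin's median was 0.135, 0.112, -0.0208 and -0.0533 in DMSO replicates 1 to 4. It was -0.000518, 0.0939, -0.0997 and -0.159 in dTAG47 replicates 1 to 4, so the ranges of the treatments overlapped. A fit with a correction for GC content and length called 161 genes higher (1.13% of 14201 genes with known features) and 77 lower (0.542%). Of the 781 called genes that had these features, 776 kept their sign and 181 kept their call. In these bulk libraries, fewer cells that express a gene and less RNA per cell cannot be told apart.

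**Figure D1:**
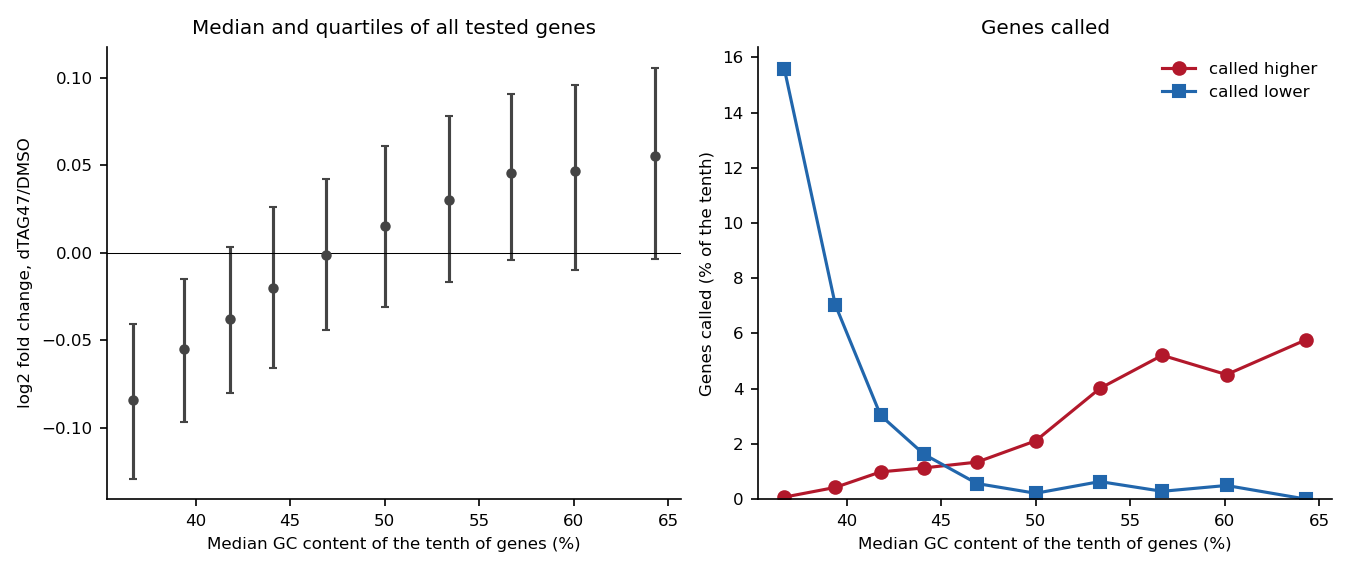
Median log2 fold change (dTAG47 over DMSO, with quartiles) and percentage of genes called higher or lower, for 10 equal bins of the tested genes ordered by the GC content of their transcripts. The medians run from -0.08 in the lowest bin to 0.06 in the highest.

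Each pair of replicates was also fitted by itself. Replicates 3 and 4 alone called 465 genes higher (3.21%) and 445 lower (3.08%), and replicates 1 and 2 alone called 4 higher (0.0276%) and 3 lower (0.0207%). The 7 genes called in replicates 1 and 2 were ABCA1, STC1, ATP11A and TBC1D22A, which rose, and CELSR2, HMGCS1 and IDI1, which fell. All 7 were called in replicates 3 and 4 in the same direction. Of the 910 genes called in replicates 3 and 4, 849 (93.3%) had the same sign in replicates 1 and 2, where 67.8% of all tested genes agreed in sign between the pairs. The median log2 fold change of the 465 higher genes was 0.15 in replicates 3 and 4 and 0.10 in replicates 1 and 2, and that of the 445 lower genes was -0.16 and -0.11. In replicates 1 and 2, 554 of the 910 (60.9%) had no overlap between treatments, in the direction of their change in replicates 3 and 4. The same held for 28.9% of all tested genes. The interaction of treatment and pair was called for 0 genes by edgeR, with 358 at an unadjusted p under 0.05. The smallest of those p-values belonged to RPS29, CDK10 and NFAM1. Across 12718 genes of at least 1 CPM, the log2 fold changes of the pairs had a Pearson correlation of 0.385 and a Spearman correlation of 0.468, as a description over genes, which are not independent replicates.

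**Figure D2:**
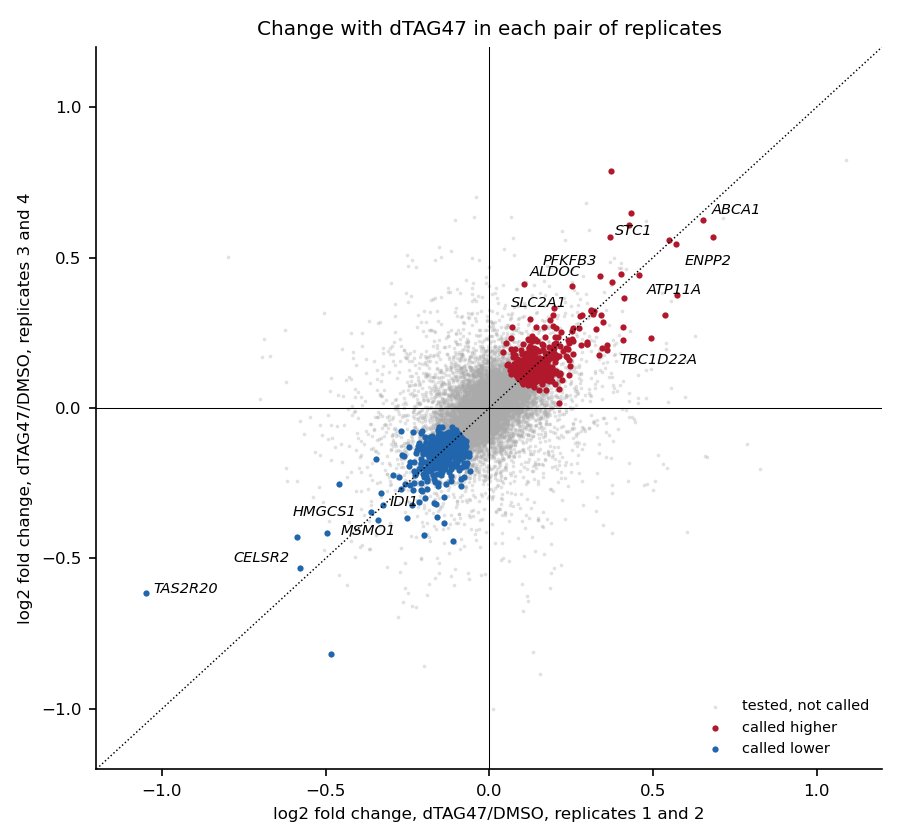
Log2 fold change (dTAG47 over DMSO) in replicates 3 and 4 (vertical) against replicates 1 and 2 (horizontal) for 12718 genes of at least 1 CPM. The genes called in both pairs, among them ABCA1, STC1, CELSR2 and HMGCS1, lie far from the origin near the diagonal.

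Genes of cholesterol synthesis fell with dTAG47. Of 21 tested members of the pathway, 11 fell and 0 rose, and 12 (57.1%) had all 4 dTAG47 libraries below all 4 DMSO libraries. The median log2 fold change of the list was -0.16, against -0.0023 over all tested genes. With the correction for GC content and length 13 members fell, with a median of -0.16, and without dTAG47 replicate 2 12 fell, with a median of -0.14. Without the term for pairs 3 fell. Against the DMSO libraries of its own pair, the list's median was -0.15, -0.18, -0.16 and -0.11 in dTAG47 replicates 1 to 4, so each of the 4 libraries was lower.

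Short stretches of promoters are shown for some of these genes because the CCAAT box, bound by NF-Y, commonly accompanies SREBP sites in sterol-controlled promoters. They come from RefSeq (GRCh38.p14, from 250 bases before to 50 bases after each annotated start) and are written 5′ to 3′ on the gene's strand, with the box in capitals (CCAAT, or ATTGG where it lies on the other strand). The HMGCS1 and IDI1 genes lie on the minus strand, and MSMO1 and INSIG1 on the plus strand.
HMGCS1, chr5:43313488-43313532: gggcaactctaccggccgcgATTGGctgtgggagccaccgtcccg
HMGCS1, chr5:43313543-43313587: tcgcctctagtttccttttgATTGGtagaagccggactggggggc
MSMO1, chr4:165327573-165327617: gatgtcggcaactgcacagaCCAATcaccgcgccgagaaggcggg
INSIG1, chr7:155297688-155297732: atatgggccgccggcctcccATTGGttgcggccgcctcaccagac
The RefSeq table held 7 of the 11 cholesterol synthesis genes that fell, with 11 promoter windows, and 9 of these windows (81.8%) had CCAAT on either strand, as had 34.1% of the 15770 windows of tested genes and 34.6% of all 35116 windows. The sterol response element searched as TCACNCCAC on both strands was in 0 of the 11 windows and in 1.12% of those of tested genes. These matches describe the letters in the windows and were not tested.

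HMGCS1 (ENSG00000112972.10, chromosome 5, 43287572 to 43313614 in hg19) encodes the synthase that makes HMG-CoA. Its level was 226, 233, 210 and 207 CPM in DMSO replicates 1 to 4 and 174, 183, 167 and 162 CPM in dTAG47 replicates 1 to 4. Every dTAG47 library lay below every DMSO library. The means were 219 ± 12.4 and 171 ± 9.36 CPM (SD, n = 4), a log2 fold change of -0.35 (SE 0.0266, edgeR adjusted p = 3.54e-09), and -0.29 with the correction for GC content and length. It was called in both pairs of replicates alone.

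IDI1 (ENSG00000067064.6), the isomerase of the isoprenoid unit, was at 75.7, 76.5, 69.3 and 65.9 CPM under DMSO and at 62.4, 58.8, 57.3 and 53.6 CPM under dTAG47. The groups did not overlap, and the log2 fold change was -0.31 (SE 0.0332, edgeR adjusted p = 2.38e-06). MSMO1, a methylsterol oxidase, was at 103, 105, 97.2 and 91.1 CPM under DMSO and at 86.1, 88.4, 76.8 and 69.3 CPM under dTAG47. It fell by 0.31 on the log2 scale (SE 0.0347, edgeR adjusted p = 5.47e-06), again without overlap.

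Other members that fell cover the pathway from acetyl-CoA to late sterols: ACAT2, MVK, FDFT1 (squalene synthase), SQLE (squalene epoxidase), LSS (lanosterol synthase), HSD17B7 and SC5D. Their log2 fold changes were -0.14 to -0.24. FDFT1 was at 192 to 203 CPM under DMSO and 169 to 174 CPM under dTAG47, and SQLE at 248 to 262 and 211 to 233 CPM. Of these 7, only SC5D had groups that overlapped. The 10 members not called ran from MVD (log2 fold change -0.12, edgeR adjusted p = 0.0563) and LBR to FDPS (-0.0049, adjusted p = 0.945). Among them NSDHL and CYP51A1 had libraries that did not overlap, at log2 fold changes of -0.14 and -0.16, while EBP was the 1 member with a positive estimate (0.01).

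Among the 18 tested genes of sterol uptake and of SREBP control, 3 fell and 0 rose, with a median of -0.01. With the correction for GC content and length 3 fell, not all of them the same genes. INSIG1, the sterol-sensing protein that holds SREBPs in the endoplasmic reticulum and is itself an SREBP target, was at 113, 111, 109 and 104 CPM under DMSO and 94.8, 95.9, 90.1 and 86.2 CPM under dTAG47. The groups did not overlap (log2 fold change -0.25, SE 0.0289, edgeR adjusted p = 5.47e-06). STARD4, a sterol carrier, fell by 0.17 on the log2 scale (edgeR adjusted p = 0.00271), which became -0.07 and not called (adjusted p = 0.137) with the correction. The transcripts of the regulators themselves were not called: SREBF2 had a log2 fold change of -0.01 (SE 0.0251), SREBF1 of -0.00045 (SE 0.0364) and SCAP of 0.08 (SE 0.036). The 2 RefSeq promoter windows of genes in this list that fell, those of INSIG1 and STARD4, both held CCAAT and neither held TCACNCCAC.

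ABCA1 rose more than any other gene above 10 CPM. ABCA1 (ENSG00000165029.11, chromosome 9, 107543287 to 107690436 in hg19) exports cholesterol to lipid-poor apolipoproteins. It was at 13.7, 12.5, 12.1 and 13.3 CPM in the DMSO libraries and at 19, 22, 19.6 and 19.8 CPM in the dTAG47 libraries. The highest DMSO library was below the lowest dTAG47 library. The means were 12.9 ± 0.708 and 20.1 ± 1.33 CPM (SD, n = 4), 1.56-fold (log2 0.64, SE 0.0545, edgeR adjusted p = 3.77e-08), with 0.67 under the correction for GC content and length and 0.59 without dTAG47 replicate 2. Of the 11 tested LXR targets and efflux genes it was the only one called. The others included ABCG1 (log2 fold change 0.02, SE 0.132), MYLIP (-0.01, SE 0.058) and APOE (0.20, SE 0.104, edgeR adjusted p = 0.268), and the median of the list was 0.05. Of 24 genes of fatty acid synthesis and activation, 3 fell and 0 rose: ACSL4, ACSL3 and PNPLA3, at log2 fold changes of -0.12, -0.10 and -0.18. The list's median was -0.02. Under the correction, which covered 23 of the 24, 2 members fell. These were PNPLA3 (-0.21) and a member not called before, while ACSL4 and ACSL3 (-0.02 and -0.0081) were not called.

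**Figure D3:**
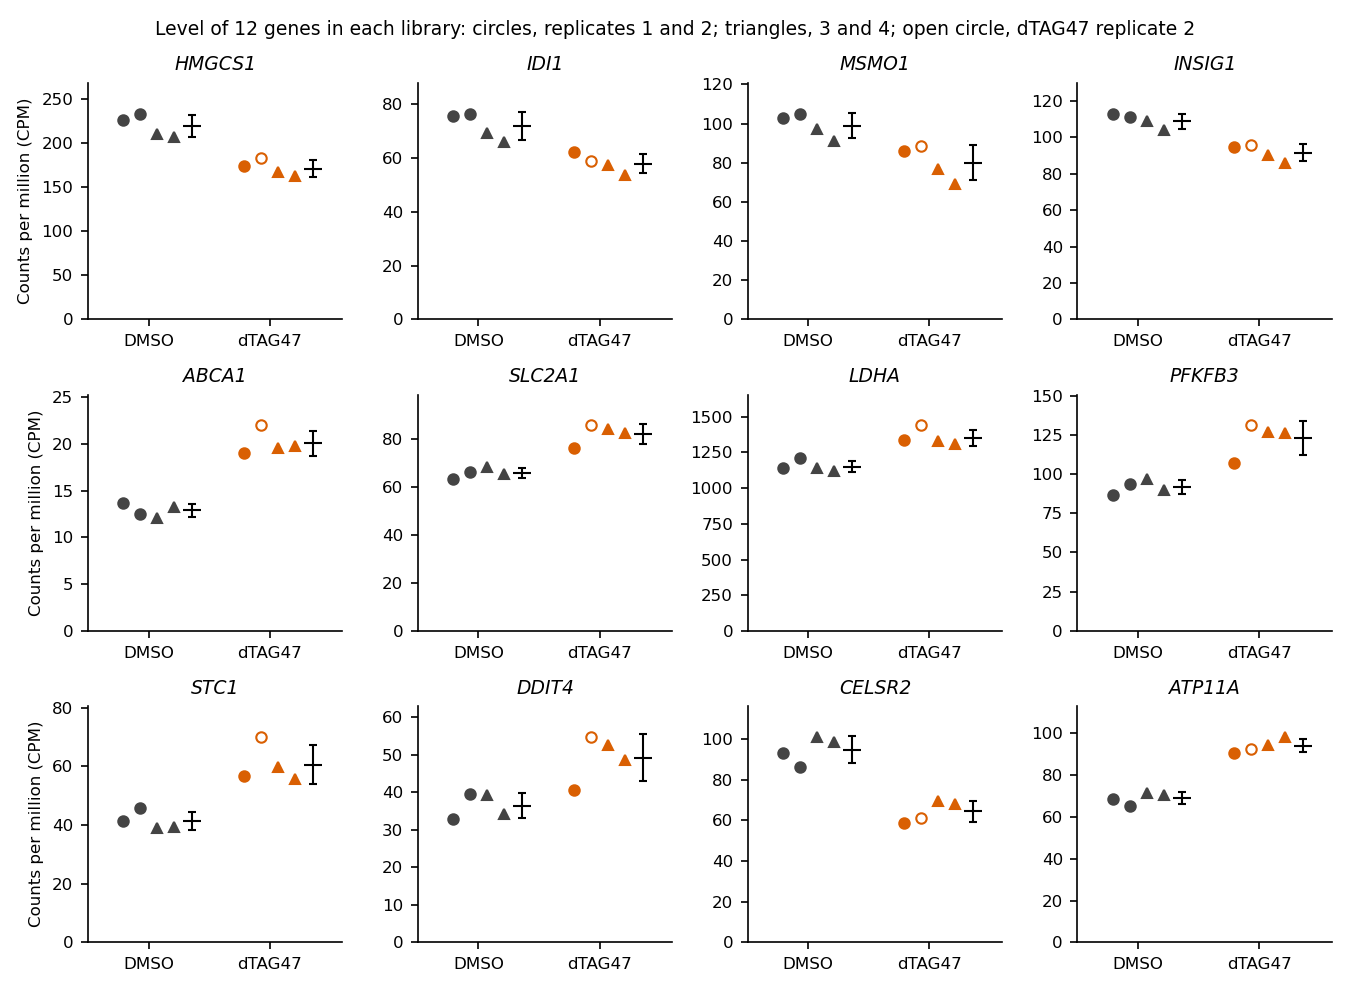
Level in CPM (vertical, from 0) of 12 genes in each of the 8 libraries, by treatment, with circles for replicates 1 and 2, triangles for replicates 3 and 4, an open circle for dTAG47 replicate 2 and a bar for the mean ± SD. HMGCS1, IDI1, MSMO1, INSIG1 and CELSR2 are lower in all 4 dTAG47 libraries, and ABCA1, SLC2A1, LDHA, PFKFB3, STC1, DDIT4 and ATP11A are higher.

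Genes of glycolysis rose with dTAG47. Of 25 tested members, 17 rose and 0 fell, and 16 (64%) had all 4 dTAG47 libraries above all 4 DMSO libraries. The median log2 fold change was 0.19. With the correction for GC content and length 14 rose, without dTAG47 replicate 2 18 rose, and without the term for pairs 8 rose. Against the DMSO libraries of its own pair the list's median was 0.17, 0.22, 0.19 and 0.19 in dTAG47 replicates 1 to 4.

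The letters ACGTG are the core of the element that HIF1 binds. Promoter windows of glycolysis genes with this core are shown as above, 5′ to 3′ on the gene's strand and with the core in capitals, from RefSeq (GRCh38.p14).
LDHA, chr11:18394457-18394501: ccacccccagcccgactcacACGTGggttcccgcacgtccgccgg
PFKP, chr10:3069030-3069074: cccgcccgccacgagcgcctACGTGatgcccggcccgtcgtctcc
PGK1, chrX:78104026-78104070: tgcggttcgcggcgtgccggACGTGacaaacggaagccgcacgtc
ALDOC, chr17:28577110-28577145: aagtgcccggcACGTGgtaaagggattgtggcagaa
All 17 glycolysis genes that rose were in the table, with 32 windows, and 14 of these windows (43.8%), from 11 genes, held ACGTG on either strand. The share was 24.6% in the windows of tested genes and 21.4% in all windows. Among the called genes of the hypoxia list outside glycolysis, 2 of 7 windows (28.6%) held it. It was also in 3 of 11 windows (27.3%) of the cholesterol synthesis genes that fell and in both windows of the sterol uptake genes that fell. Like the CCAAT counts, these counts were not tested, and windows of 1 gene can overlap. In the LDHA and ALDOC stretches a C precedes the core, so that it is matched on both strands. Which factor binds these letters in the cells was not tested.

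The members span import, both phases of the pathway and lactate formation. SLC2A1, the glucose transporter GLUT1, was at 63.4, 66, 68.1 and 65.3 CPM under DMSO and at 76, 85.6, 84.2 and 82.4 CPM under dTAG47. The means were 65.7 ± 1.93 and 82.1 ± 4.21 CPM (SD, n = 4), a log2 fold change of 0.32 (SE 0.0344, edgeR adjusted p = 2.37e-06), with no overlap. ALDOC, an aldolase, was at 22.7, 24.8, 25.7 and 24 CPM under DMSO and at 28, 32.1, 33.8 and 33.4 CPM under dTAG47 (log2 fold change 0.39, SE 0.0464, edgeR adjusted p = 9.59e-06). PFKFB3, which makes the activator of phosphofructokinase, was at 86.9, 93.6, 96.9 and 89.5 CPM and at 107, 131, 127 and 126 CPM (0.43, SE 0.0552, edgeR adjusted p = 0.00263). LDHA, the lactate dehydrogenase subunit, was at 1140, 1210, 1140 and 1120 CPM and at 1340, 1440, 1330 and 1310 CPM (0.23, SE 0.028, edgeR adjusted p = 1.05e-05). In each of these genes the lowest dTAG47 library was above the highest DMSO library.

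The other enzymes that were called rose by less than SLC2A1, ALDOC and PFKFB3. ALDOA, PFKP, HK2, ENO1, PGK1 and PGAM1 had log2 fold changes of 0.20 to 0.24, and GPI, ENO2, TPI1, PKM, HK1, GAPDH and PFKL of 0.14 to 0.18. Only GAPDH and PFKL had overlapping groups among those called. Of the members not called, PDK1, the kinase that restrains pyruvate dehydrogenase, was at 44.9 to 56.8 CPM under DMSO and 58.8 to 89 CPM under dTAG47, where 89 CPM was in replicate 2 (log2 fold change 0.45, edgeR adjusted p = 0.145). LDHB (0.02, SE 0.027), PFKM (0.03, SE 0.0269) and the monocarboxylate transporter SLC16A1 (-0.02, SE 0.0252) were also not called.

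Among the 29 tested genes that hypoxia induces outside glycolysis, 5 rose and 0 fell, with a median of 0.16, and 7 (24.1%) had all dTAG47 libraries above all DMSO libraries. This count depended on the fit: DESeq2 with the same term called 12 higher and 1 lower, limma-voom 13 higher, and edgeR without the filter on low counts 16 higher. With the correction for GC content and length 5 rose, not all of them the same genes, since STC2 was not called. Without the term for pairs 1 rose. Without dTAG47 replicate 1 16 rose. Without dTAG47 replicate 2 9 rose and 3 fell, where 9.57% and 9.21% of all tested genes did. Leaving out DMSO replicate 1 or DMSO replicate 4 gave 3 rises each. The list's median against the DMSO libraries of its own pair was 0.04, 0.30, 0.17 and 0.17 in dTAG47 replicates 1 to 4, so replicate 1 was the lowest and replicate 2 the highest.

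STC1, the secreted glycoprotein stanniocalcin, was at 41.3, 45.7, 39.1 and 39.3 CPM under DMSO and at 56.9, 70.1, 59.9 and 55.7 CPM under dTAG47. The groups did not overlap (log2 fold change 0.56, SE 0.0562, edgeR adjusted p = 9.26e-05), and the value was 0.49 without dTAG47 replicate 2. The histone demethylase KDM3A was at 57.9 to 63.7 CPM under DMSO and at 71, 87.5, 72.8 and 73.5 CPM under dTAG47 (0.32, edgeR adjusted p = 0.00121). KDM4B, STC2 and MXI1 rose as well, at log2 fold changes of 0.16, 0.26 and 0.14. Other members had estimates as large that did not pass the edgeR test and passed in other fits. DDIT4, an inhibitor of mTORC1, was at 32.9, 39.4, 39.3 and 34.1 CPM and at 40.6, 54.7, 52.6 and 48.5 CPM (0.43, SE 0.117, edgeR adjusted p = 0.103), and its adjusted p was 0.013 by DESeq2 and 0.00122 by limma-voom. BNIP3 (0.43, adjusted p = 0.11), VEGFA (0.39, adjusted p = 0.17) and FAM162A (0.44, adjusted p = 0.0812) also had groups that did not overlap, each with its highest value in dTAG47 replicate 2. DESeq2 called these 3 genes, with an adjusted p of 0.0109 for BNIP3, 0.0388 for VEGFA and 0.0093 for FAM162A. Without dTAG47 replicate 2, edgeR called FAM162A (adjusted p = 0.00495) and not DDIT4 (0.11), BNIP3 (0.0955) or VEGFA (0.126). The transcript of HIF1A itself was at 244 to 260 CPM and 231 to 259 CPM (-0.05, SE 0.0262, adjusted p = 0.268).

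**Figure D4:**
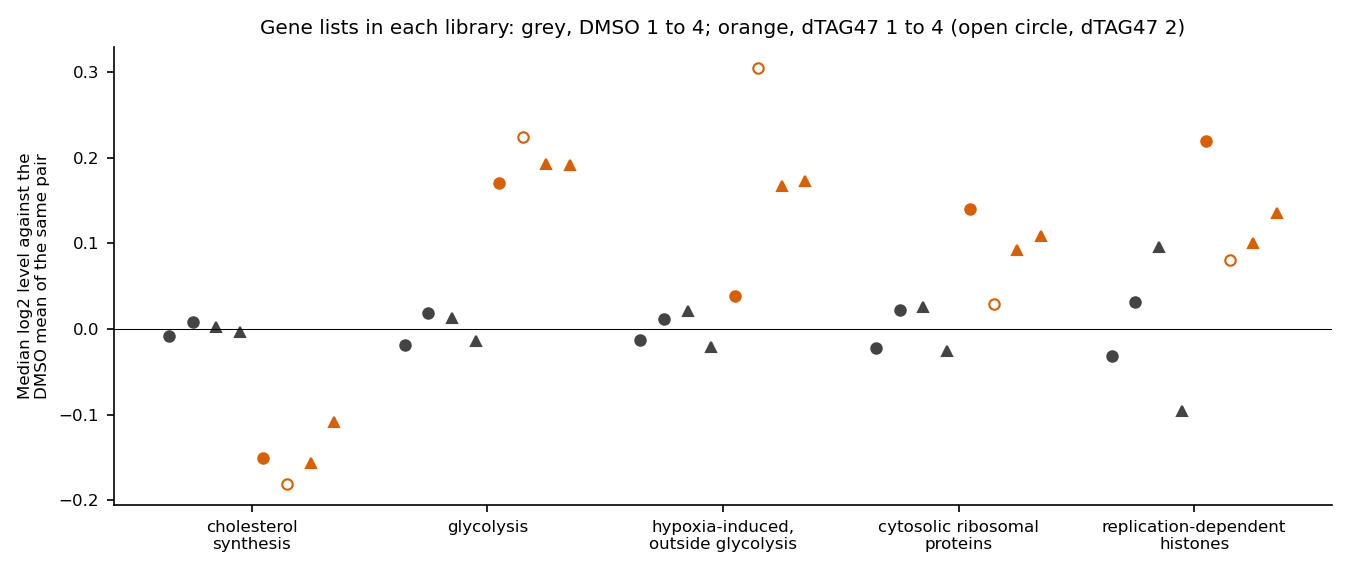
Median log2 level of gene lists in each library against the mean of the DMSO libraries of its own pair (CPM + 0.1). Cholesterol synthesis is below 0 in all 4 dTAG47 libraries (-0.18 to -0.11) and glycolysis above 0 (0.17 to 0.22), and the values of the 2 DMSO libraries of a pair mirror each other because they are measured from their own mean.

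Outside these pathways, the calls included single genes of other functions. CELSR2 (ENSG00000143126.7, chromosome 1, 109792161 to 109818373 in hg19), an adhesion receptor of the cadherin superfamily that acts in planar polarity, had the smallest adjusted p of all tested genes. It was at 93.1, 86, 101 and 98.3 CPM under DMSO and at 58.6, 61.3, 69.6 and 68.2 CPM under dTAG47. The means were 94.6 ± 6.64 and 64.4 ± 5.29 CPM (SD, n = 4), a log2 fold change of -0.56 (SE 0.0317, edgeR adjusted p = 1.94e-11), and -0.58 with the correction for GC content and length. It was the only 1 of the 44 tested genes of planar polarity and the cadherin superfamily to be called, and their median was 0.0062.

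ATP11A (ENSG00000068650.14), a phospholipid flippase, was at 68.5, 65, 71.6 and 70.4 CPM under DMSO and at 90.7, 92.6, 94.5 and 98.2 CPM under dTAG47. The groups were far apart for their spread (log2 fold change 0.45, SE 0.0297, edgeR adjusted p = 2.71e-10). TBC1D22A, a member of the family of Rab GTPase-activating proteins, rose from 27.1 to 31.1 CPM to 35.3 to 36 CPM (0.28, edgeR adjusted p = 9.9e-05). KCNC4, a voltage-gated potassium channel, was at 9 to 9.31 CPM and 10.8 to 14.4 CPM (0.47, adjusted p = 0.000181). ENPP2 (autotaxin, 0.56) and COX4I2 (a cytochrome oxidase subunit isoform, 0.52) rose without overlap at 3 to 6.26 CPM.

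Past 1.5-fold, most calls were of genes at the lower end of the range. NKAIN4 fell from 0.708 ± 0.128 to 0.263 ± 0.0509 CPM (SD, n = 4), a log2 fold change of -1.41 (SE 0.269, edgeR adjusted p = 0.00359), and was called again with each of the 8 libraries left out. TAS2R20 (-0.84) and C9orf84 (-0.63) also fell, and TRIM73 (1.2), INPP5D (0.84), SSTR5 (0.79), APLN (0.62) and SKOR1 (0.59) rose beside ABCA1. With 1 library left out in turn, TAS2R20 was called in 5 of the 8 fits and C9orf84, INPP5D and SKOR1 in 2 each. TRIM73, SSTR5 and APLN were called in 1 each. Under the correction for GC content and length C9orf84, TRIM73, INPP5D, APLN and SKOR1 were not called. All 5 of those that rose beside ABCA1 had means under 1.5 CPM. Of the 9 calls, glmTreat against a fold of 1.5 kept 0 in each direction.

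CRBN, FKBP1A and PDPK1, the transcripts behind the degrader and its target in the study, were not called. CRBN (cereblon) was at 37.3 ± 1.74 CPM under DMSO and 37.1 ± 3.09 CPM under dTAG47 (SD, n = 4, log2 fold change -0.0089, SE 0.0419, edgeR adjusted p = 0.929). FKBP1A, which encodes FKBP12, was at 94.6 ± 2.41 and 97.3 ± 2.92 CPM (0.04, SE 0.0295, adjusted p = 0.465). PDPK1, untagged here, was at 57.3, 58.8, 57.2 and 59.8 CPM and at 55.3, 58, 57 and 59.2 CPM. Its groups overlapped (-0.02, SE 0.0325, edgeR adjusted p = 0.75). Of 22 genes of the cereblon ligase and its regulators, 0 were called by edgeR, with a median of 0.0014, and DDA1 had the smallest p (0.11, adjusted p = 0.0662). Without dTAG47 replicate 2, 4 of the 22 rose, DDA1 among them (adjusted p = 0.0023), and 2 fell. In that fit 9.57% of all tested genes rose and 9.21% fell. Of 21 genes for known cereblon neosubstrates 3 rose: SALL4 (0.21), ZNF692 (0.21) and WIZ (0.09), with a median of 0.0022 over the list and 2 calls under the correction. Transcript levels do not show the amount of these proteins. Of 30 FKBP family members and partners of FKBP12, 3 rose, FKBP2 and FKBP9 among them, and 1, PPP3CA, fell, with a median of 0.01. Under the correction 0 rose and 1 fell, which was not PPP3CA (-0.06, edgeR adjusted p = 0.229).

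MYCN was at 2680 ± 73.9 CPM under DMSO and 2860 ± 95.8 CPM under dTAG47 (SD, n = 4), a log2 fold change of 0.09 (edgeR adjusted p = 0.045). The call was lost under the correction for GC content and length (0.05, adjusted p = 0.421) and without the term for pairs (edgeR adjusted p = 0.673). With each of the 8 libraries left out in turn, MYCN was called in 1 fit, the one without dTAG47 replicate 2. WDR5, a cofactor of MYC proteins, was not called (-0.03, adjusted p = 0.658). Among 62 core MYC targets 3 rose and 2 fell, with a median of 0.0094, and 0 were called under the correction. Without dTAG47 replicate 2, 17 of them rose and 2 fell, where 9.57% and 9.21% of all tested genes did. Without DMSO replicate 1 or dTAG47 replicate 4 0 were called. NME1 and FBL were among those that rose.

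Mitotic genes were measured with the same compound in cells without the tag. Of the 6 mitotic genes that the study followed, CENPE, ASPM and SMC4 fell, at log2 fold changes of -0.20, -0.14 and -0.12, and CENPF (-0.05, edgeR adjusted p = 0.279), SMC3 (-0.04) and TOP2A (-0.03) were not called. CENPE, a kinesin of the kinetochore, was at 146, 139, 130 and 123 CPM under DMSO and at 119, 134, 110 and 105 CPM under dTAG47. The groups overlapped over all 8 libraries and not within each pair. The study took these genes from earlier work of its authors on PDPK1 and WDR5. Under the correction for GC content and length 1 of the 6, CENPE, was called (-0.10, adjusted p = 0.0292), and the list's median went from -0.09 to -0.02. Without the term for pairs 0 of the 6 were called. With each of the 8 libraries left out in turn, CENPE was called in 8 fits and ASPM and SMC4 in 4 each. Of 74 G2/M genes 7 fell and 0 rose, with a median of -0.0067. Under the correction 1 fell. Without dTAG47 replicate 2 9 rose and 11 fell, where 9.57% and 9.21% of all tested genes did. Leaving out DMSO replicates 1 to 4 in turn gave 2, 4, 2 and 2 falls, and leaving out dTAG47 replicate 4 gave 2. Of 59 S phase genes 3 rose (MCM5, TK1 and MCM6) and 1, BRCA2, fell, with a median of 0.03. Without dTAG47 replicate 2, 18 of them rose and 1 fell, and without DMSO replicate 1, DMSO replicate 4 or dTAG47 replicate 4 0 were called.

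Many genes for ribosomal proteins and histones rose, and no member of either list fell. Of 86 genes for cytosolic ribosomal proteins 32 rose and 0 fell, with a median of 0.09. RPS27 (0.16), RPL35, RPL29 and RPL11 were the first by adjusted p. Under the correction for GC content and length 17 rose, and without the term for pairs 0 were called. Without dTAG47 replicate 2 66 rose, where 9.57% of all tested genes did. Leaving out DMSO replicates 1 to 4 in turn gave 1, 14, 21 and 2 rises, and leaving out dTAG47 replicates 1, 3 or 4 gave 21, 13 and 2. The median against the DMSO libraries of the same pair was 0.14, 0.03, 0.09 and 0.11 in dTAG47 replicates 1 to 4. Of 57 replication-dependent histone genes 19 rose and 0 fell, with a median of 0.14, among them HIST1H4I (0.17) and HIST1H2BH (0.18). Only 29 of the 57 had a known GC content and length, so the correction is void for this list, and without the term for pairs 0 were called. Leaving out DMSO replicates 1 to 4 in turn gave 4, 10, 38 and 3 rises, and leaving out dTAG47 replicates 1 to 4 gave 11, 24, 11 and 4. Both families have near-identical copies or pseudogenes, between which the counting could divide reads, so the values of single members are uncertain. Of the 13 mitochondrially encoded genes 3 rose, MT-CO2, MT-ATP8 and MT-ND1, at 0.11 to 0.15, with a median of 0.04 and 1 call under the correction.

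Among the 186 distinct genes of 7 stress response lists, 9 rose (4.84%) and 5 fell (2.69%), where 2.58% and 2.9% of all tested genes did. The rises made up 9.68% of the immediate early genes, 9.09% of the NRF2 and AHR targets and 6.67% of the ATF4 targets, and the falls 10.5% of the heat shock genes and 7.41% of the p53 targets, each from 2 or 3 genes. Of 30 targets of ATF4 and amino acid stress 2 rose, SHMT2 and SLC3A2 (median 0.02). Of 26 chaperones and unfolded protein response genes of the endoplasmic reticulum 1 rose, CALR (median -0.01), and of 19 cytosolic heat shock genes 2 fell, CHORDC1 and HSPE1 (median -0.03). Among 32 proteasome genes 1 rose, PSMB7, and 1 fell, PSMA1 (median 0.03). Of 22 targets of NRF2 or AHR 2 rose, FTL and TALDO1 (median 0.03). Of 27 p53 targets 2 fell, MDM2 and ZMAT3 (median -0.0081), and of 31 immediate early and MAPK feedback genes 3 rose, SPRED2, DUSP4 and JUN (median 0.07). Under the correction for GC content and length 0 members of these lists were called, except for 1 proteasome gene that fell. Over the 186 genes, 32 rose (17.2%) and 9 fell (4.84%) without dTAG47 replicate 2, 11 of the rises among proteasome genes. In that fit 9.57% of all tested genes rose and 9.21% fell. Leaving out DMSO replicates 1 to 4 in turn gave 0, 1, 1 and 0 rises with 2, 2, 2 and 3 falls. Leaving out dTAG47 replicates 1, 3 or 4 gave 4, 1 and 0 rises with 6, 4 and 0 falls.

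Among the 352 distinct genes of 8 neuronal, neuroendocrine and lysosomal lists, 16 rose (4.55%) and 5 fell (1.42%). Over all tested genes 2.58% rose and 2.9% fell. Under the correction for GC content and length 8 of the 352 rose (2.27%) and 3 fell (0.852%). In that fit 1.13% of the genes it covered rose and 0.542% fell. Without dTAG47 replicate 2 40 rose (11.4%) and 27 fell (7.67%), where 9.57% and 9.21% of all tested genes did. With any other single library left out 5 to 8 rose and 1 to 5 fell. Of 22 adrenergic transcription factor genes 2 rose, TBX2 (log2 fold change 0.19, edgeR adjusted p = 0.0026) and MYCN, with a median of 0.02. Of 17 catecholamine and chromaffin genes 2 rose, the granule proteins SCG2 (0.18, SE 0.0283, edgeR adjusted p = 0.000341) and VGF (0.15), and GCH1 fell (-0.12), with a median of 0.02. SCG2 was at 100 to 108 CPM under DMSO and above that in all 4 dTAG47 libraries. Of 56 axon guidance genes 5 rose, SLIT3, PLXNB2, PLXND1, EFNA2 and EFNB3 (median 0.02), and under the correction 1 was called. Of 61 potassium channel genes 2 rose, 1 of them KCNC4 (median 0.02). Of 31 sodium and calcium channel genes 2 rose, CACNG4 and SCN3B, and 2 fell, HCN4 and CACNA2D1 (median 0.0077). Of 62 neurotransmitter receptor genes GRIK3 rose and GRIK2 fell (median 0.00054), of 48 synaptic vesicle genes CPLX1 rose and RIMS2 fell (median 0.0039), and of 55 lysosomal genes CTSD rose (median 0.03).

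**Figure D5:**
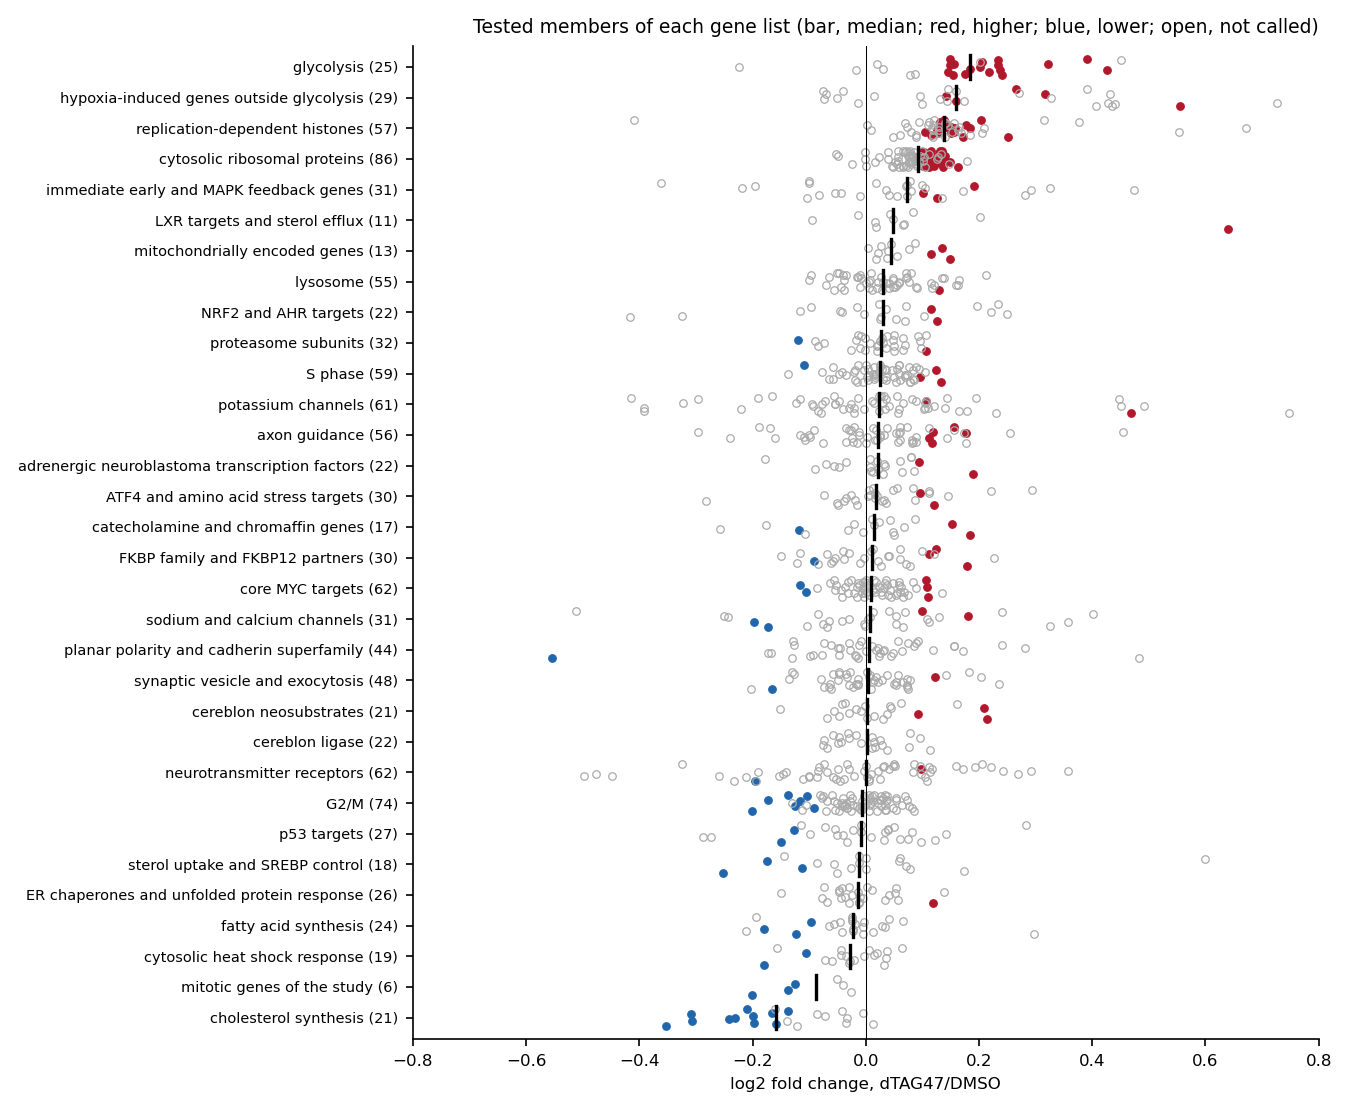
Log2 fold change (dTAG47 over DMSO) of every tested member of the gene lists, 1 point per gene, with a bar at each list's median and 2 members beyond the axis limits not drawn. Cholesterol synthesis (median -0.16) lies to the left of 0, and glycolysis (0.19), hypoxia-induced genes (0.16) and histones (0.14) lie to the right.

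Some levels may hold reads of a neighbour, since the counting is not known to have used strand. Of 201 genes checked against the annotation, 50 had an exon that overlapped an exon of another protein-coding gene, among them ALDOA, GPI, MVK, ACAT2, TPI1, PGK1, CRBN and SMC4. HMGCS1, IDI1, SLC2A1 and NKAIN4 overlapped noncoding genes on the opposite strand. The lists together held 1132 tested genes, of which 114 rose and 38 fell, and the remaining 13338 tested genes held 260 that rose and 382 that fell.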

How the data were processed

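Parental CHP-134 cells were lysed in Trizol after treatment, and ribosomal RNA-depleted libraries were sequenced on a NovaSeq instrument. The authors trimmed reads with Cutadapt, aligned them with STAR to hg19 and counted them with FeatureCounts. The deposited counts are whole numbers of reads for each gene and were not normalized. The annotation, the strand setting and the treatment of multimapping reads are not given in the sources used here. Each column was used as 1 of the 4 biological replicates of its treatment, and 0 columns belonged to other samples.

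Analyses used R 4.3.3 with edgeR 4.0.16, limma 3.58.1 and DESeq2 1.42.0, and Python 3.11.15 with matplotlib 3.10.9. Genes were filtered with filterByExpr, scaled by TMM and tested by edgeR's robust quasi-likelihood test with a term for replicates 1 and 2 against 3 and 4, at an FDR of 0.05. DESeq2, the authors' tool, was an alternative, as were voom, other scalings and filters, no term for pairs, a replicate block, each pair alone, each library left out, glmTreat at 1.5-fold and a correction for GC content and transcript length. That correction used splines with 5 degrees of freedom on exon models from GENCODE lifted to GRCh37, which covered 98.1% of tested genes. Simulated data in which 200 genes changed were first used to test edgeR with and without the term for pairs, and voom and DESeq2 with it. The interaction was run on the same data, with no interaction simulated. The other alternatives were not tested in this way. The replicate numbers were checked for pairing by the correlation of deviations from group means.

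Members, lists, the term for pairs and the tests were chosen with earlier results of these data known. Named genes follow a rule: CRBN, FKBP1A, PDPK1, MYCN, WDR5 and 6 mitotic genes, the 10 largest rises and falls among called genes of at least 1 CPM with no overlap within pairs, up to 4 called members of each list (or the member with the smallest p where none was called), genes called in each pair alone, genes called past 1.5-fold and the 3 smallest interaction p-values. Other named members of the sterol, fatty acid, glycolysis, hypoxia and axon guidance lists, the marker genes, and the promoter motif counts for glycolysis and hypoxia were chosen after their values were seen. With 4 libraries per group, p-values measure the spread between these cultures that remains after the term for pairs. In the fit reported, the difference between replicates 1 and 2 and replicates 3 and 4 is taken out of this spread. Fits without the term keep it. Some members of the lists are not reported here by name, and they remain in the counts and medians.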

Additional observations from a re-analysis of the deposited data

Results flagged for a closer look

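For the named genes, each group of 4 libraries was searched for a library separated from the other 3 by a gap beyond Dixon's 95% critical value. Of 226 groups, 9 met it, and chance alone gives about 1 in 20. In the DMSO group C9orf84 was at 2.31 CPM in replicate 1 (others 1.59 to 1.68), PSMB7 at 173 CPM in replicate 1 (others 181) and APLN at 0.54 CPM in replicate 1 (others 0.935 to 0.989). LPCAT2 was at 3.63 CPM in DMSO replicate 2 (others 2.46 to 2.66). In DMSO replicate 3 MYCN was at 2790 CPM (others 2640 to 2650) and SCN3B at 105 CPM (others 110). In dTAG47 replicate 2, the library with the keratin counts, TMEM56 was at 4.33 CPM (others 3.5 to 3.6), GRIK2 at 24.9 CPM (others 21 to 21.1) and KDM3A at 87.5 CPM (others 71 to 73.5). The cause of these values was not tested.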

How the results depend on the processing

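The counts of called genes depended on the term for pairs and on single libraries. Against 374 rises and 420 falls, no term for pairs gave 17 and 6, DESeq2 without the term 44 and 15, no filter on low counts 603 and 716, the correction for GC content and transcript length 161 and 77, and replicates 1 and 2 alone 4 and 3. Leaving out 1 library gave 74 to 1389 rises and 36 to 1336 falls, with the lowest counts without dTAG47 replicate 4 and the highest without dTAG47 replicate 2. DESeq2 with the term gave 369 and 489 (723 of the 794 genes shared), voom 361 and 373, RLE factors 326 and 439, upper quartile factors 420 and 386, library size alone 307 and 474, and at least 10 counts in each library 372 and 424. Past 1.5-fold, the 6 rises and 3 falls became 1 and 1 without the term, 1 and 0 by DESeq2 with or without it, 19 and 7 without a filter, 13 and 18 in replicates 3 and 4 alone, 1 and 0 in replicates 1 and 2 alone, and 0 and 0 by glmTreat. The rises became 3 with the correction for GC content and length, and leaving out 1 library gave 2 to 9 rises and 1 to 34 falls. The interaction, with 0 calls, had 1 without a filter and 0 to 15 with 1 library left out (15 without dTAG47 replicate 1 and 7 without dTAG47 replicate 2). In replicates 1 and 2 alone the 4 rises became 15 by DESeq2, 19 with the spread taken from all 8 libraries and 19 with a replicate block within the pair, and the 3 falls became 8 with the spread from all 8 and 5 with that block. In replicates 3 and 4 alone the 465 rises became 119 by DESeq2 and 16 with the spread from all 8, and the 445 falls became 92 and 8.

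Correlations of the deviations of same-numbered libraries were 0.0093, 0.109, 0.101 and 0.159, and 3 of 8 libraries correlated best with their own number, so the numbers were not taken as pairs. A fit with a replicate block gave 306 rises and 362 falls, of which 632 were among the 794. Under this block 84 of the 102 named calls remained, and 14 hypoxia-induced genes outside glycolysis rose, against 5. No named gene with a call reversed its direction under any alternative run, while estimates of genes that were not called did change sign, as for NFAM1 between the pairs (1.26 and -1.21, log2) and for TOP2A with the correction (-0.03 and 0.04). Rises were fewer than falls in the fit reported (374 and 420) and more with the correction (161 and 77). Of the 102 named genes that were called, 16 kept the call without the term for pairs, 45 of 100 with the correction for GC content and length, 34 without dTAG47 replicate 4 and 101 without dTAG47 replicate 2. The cause of the lost calls was not tested.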
